A study of Macaca mulatta with 9 samples.

Results

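This account follows 4 genes of acute cellular stress in the prostate of rhesus monkeys exposed to dioxin in early life: the chaperone genes HSPA1A, HSPH1 and DNAJA1, and the immediate early gene IER2. They were taken as every probe that the authors' table of differing probes describes with one of these symbols, which gave 1 probe per gene, 4 of the 1231 symbols in that table (HSPA1A, A_01_P019368; HSPH1, A_01_P006427; DNAJA1, A_01_P015768; IER2, A_01_P005850). The table lists probes by a difference between dose groups on these same arrays (a p up to 0.05 in analysis of variance, and 1.5-fold or more at either dose), so a difference at these probes was a condition of their being named. Their differences between groups are therefore given as a description, and the p-values beside them are not independent evidence. The question was whether chaperones and an immediate early gene, both of which respond to handling or tissue stress, moved together with dose.

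Total RNA from the prostates of 9 Macaca mulatta offspring was hybridised to 9 Agilent 1-colour arrays, 1 array per animal and 3 animals per group. The dams received TCDD (2,3,7,8-tetrachlorodibenzo-p-dioxin, a persistent ligand of the aryl hydrocarbon receptor) under the skin at 0 (vehicle), 30 or 300 ng/kg on day 20 of gestation. They then received 5% of that dose at 30-day intervals, the last on day 90 after delivery, so that the offspring were exposed through the placenta and the milk, and the prostates were taken 7 years after exposure. All groups were whole frozen prostate, homogenized before extraction, and the labels name no litter and no interval between death and freezing.

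Heat shock proteins are molecular chaperones that hold and refold unfolded proteins. Their genes are induced by the transcription factor HSF1 when misfolded protein accumulates, as after heat, hypoxia or delayed tissue cooling. HSPA1A is the classical inducible member of the HSPA chaperone family, DNAJA1 is a J-domain partner that delivers clients to it and stimulates its ATPase, and HSPH1 is a nucleotide exchange factor that resets it, so the 3 genes encode parts of a single refolding cycle. IER2 belongs to the immediate early genes, whose transcripts appear within minutes of growth factor or stress signalling without new protein synthesis and decay as quickly. It encodes a nuclear regulator.

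The arrays differed in overall brightness, and this touches every result below. The 75th percentile of signal ran from 514 to 1193 intensity units in vehicle, from 343 to 1356 at 30 ng/kg and from 1258 to 2374 at 300 ng/kg. Values below are log2 of the probe signal relative to the 75th percentile of its own array unless they are called unscaled. The arrays lay on 3 slides: slide 1 held 2 vehicle arrays, slide 2 held 1 vehicle and 2 arrays of 30 ng/kg, and slide 3 held 1 array of 30 ng/kg and all 3 of 300 ng/kg. Vehicle and 300 ng/kg therefore never shared a slide. Of the prostate markers, KLK3 and MSMB were well above background on all 9 arrays, as labelled. In bulk tissue fewer cells of a type and less RNA per cell cannot be told apart.

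The 3 chaperone transcripts stood higher in the 300 ng/kg offspring than in either other group. HSPA1A read 4.82, 4.44 and 3.65 in the 3 vehicle prostates, 4.34, 4.25 and 4.02 at 30 ng/kg, and 5.26, 5.69 and 5.45 at 300 ng/kg. All 300 ng/kg arrays lay above all other arrays, while vehicle and 30 ng/kg overlapped, and vehicle was the most spread of the groups (4.30 ± 0.60, SD, n = 3, against 4.20 ± 0.17 and 5.46 ± 0.22). The difference from vehicle at 300 ng/kg was 1.16 ± 0.31 on the log2 scale (limma's SE, 3 animals a group), or 2.24-fold. HSPA1A has a near-identical neighbouring copy, HSPA1B, and the array probe was matched to the gene by the authors' description only, so its signal may hold both.

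HSPH1 read 1.64, 1.56 and 1.95 in vehicle, 1.65, 1.98 and 1.36 at 30 ng/kg, and 2.50, 3.44 and 3.23 at 300 ng/kg. Replicate 1 of 300 ng/kg was the lowest of its group, yet above every array of the other groups. The difference from vehicle was 1.34 ± 0.29 (log2 ± SE), or 2.53-fold. DNAJA1 varied least of the 4 genes in vehicle and at 30 ng/kg, though not at 300 ng/kg, with 2.43, 2.34 and 2.21 in vehicle, 2.39, 2.55 and 2.27 at 30 ng/kg, and 3.32, 3.80 and 3.87 at 300 ng/kg. Its other 6 arrays lay between 2.21 and 2.55, a narrower span than their gap to the lowest array of 300 ng/kg. The difference from vehicle was 1.34 ± 0.22, or 2.53-fold.

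IER2 went the other way. It read 2.31, 1.56 and 2.51 in vehicle, 2.96, 2.02 and 2.05 at 30 ng/kg, and 0.58, 0.91 and -0.65 at 300 ng/kg. All 3 arrays of 300 ng/kg lay below the other 6, and replicate 3 was the lowest by more than 1 log2 unit. The difference from vehicle was -1.84 ± 0.46, a 3.59-fold lower signal. Within groups IER2 had SDs of 0.50, 0.53 and 0.82 in the order of dose (n = 3 each), the widest of the 4 genes at both TCDD doses, while HSPA1A was wider in vehicle.

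**Figure D1:**
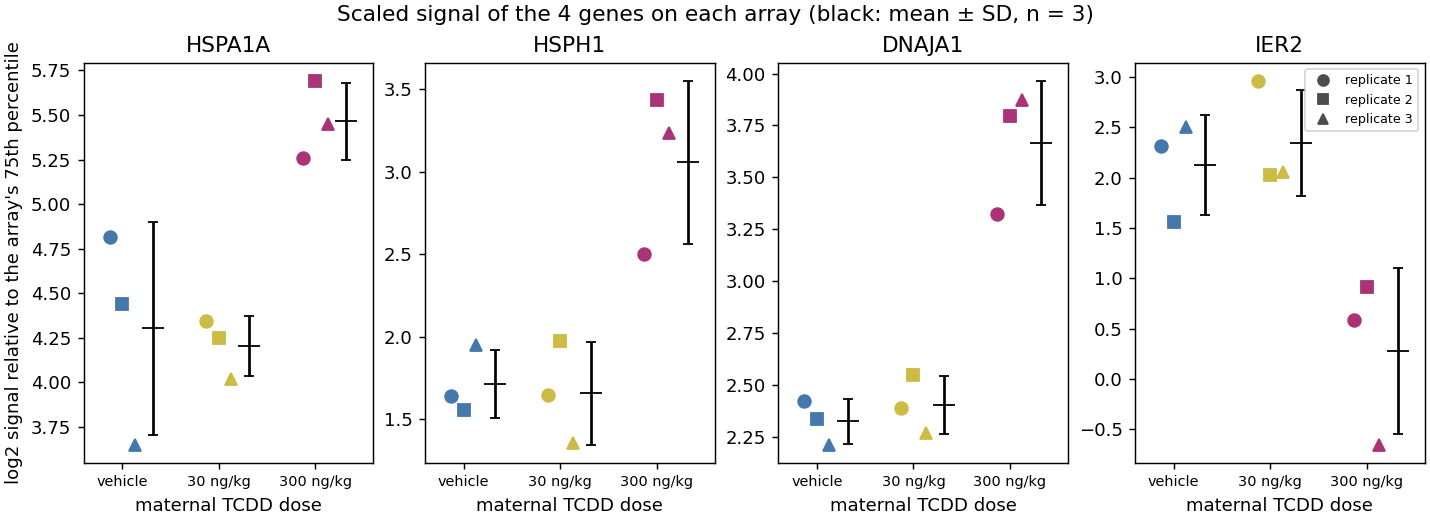
Each point is 1 array, placed by maternal dose on the x axis, with log2 signal over the array's own 75th percentile on the y axis (a separate range for each gene), marker shape for the replicate number and black bars for the mean ± SD (n = 3). The 300 ng/kg arrays sit above all others for HSPA1A, HSPH1 and DNAJA1 and below all others for IER2, whereas vehicle and 30 ng/kg overlap for each gene.

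After adjustment no gene of the 4 was called. limma with Benjamini-Hochberg adjustment over 15160 probes called 0 probes between 300 ng/kg and vehicle (0% called), and 2357 probes (15.5%) had an unadjusted p under 0.05. The adjusted p was 0.216 for DNAJA1 and 0.267 for HSPH1, HSPA1A and IER2. Their unadjusted p-values in limma's fit were 0.000182, 0.0014, 0.00431 and 0.00301. With array weights limma called 198 of the 15160 probes, and 4634 had an unadjusted p under 0.05. In that fit DNAJA1 and HSPH1 had adjusted p-values of 0.0457 and 0.0489, with differences of 1.21 and 1.28. HSPA1A and IER2 had 0.0823 and 0.0518. Separation of the groups by itself is common on these arrays: 22.7% of all probes did so, 11.5% with every 300 ng/kg array above every vehicle array and 11.2% with every one below. By the size of the difference, 2.23% of probes lay above HSPH1, 2.24% above DNAJA1 and 3.13% above HSPA1A, and 1.21% lay below IER2. The median over all probes was -0.01.

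At 30 ng/kg none of the 4 genes stood apart from vehicle. The differences were -0.10 ± 0.31 for HSPA1A, -0.06 ± 0.29 for HSPH1, 0.08 ± 0.22 for DNAJA1 and 0.22 ± 0.46 for IER2 (log2 ± SE, n = 3 per group), and the groups overlapped for all 4. The 95% intervals of limma's fit were -0.79 to 0.59, -0.72 to 0.61, -0.42 to 0.58 and -0.82 to 1.26. These intervals leave out the differences measured at 300 ng/kg for all 4 genes. Adjusted p-values ran from 0.972 to 0.990. limma called 0 probes in this comparison (0%), 766 (5.05%) had an unadjusted p under 0.05, and 9.38% of probes had groups that did not overlap (4.93% higher and 4.45% lower).

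Between the doses the picture resembled that against vehicle, and these comparisons share the 300 ng/kg arrays. From 30 to 300 ng/kg the differences were 1.26 ± 0.31 for HSPA1A, 1.40 ± 0.29 for HSPH1, 1.26 ± 0.22 for DNAJA1 and -2.06 ± 0.46 for IER2, with no overlap of groups for any of them. The adjusted p was 0.160 for each. limma called 0 probes (0%), while 3130 (20.6%) had an unadjusted p under 0.05, 8.12% of all probes higher and 12.5% lower. Groups were separate for 25.6% of probes, 11.2% higher and 14.4% lower. The levels thus did not follow the dose in steps: vehicle and 30 ng/kg shared a range, and 300 ng/kg stood outside it. In the authors' deposited table, which was normalized in a way not given in the sources used here, the folds at 300 ng/kg are 2.24 up for HSPA1A, 2.54 up for HSPH1, 2.53 up for DNAJA1 and 3.59 down for IER2. The same table gives folds of 1.04 to 1.16 for these genes at 30 ng/kg.

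Before scaling, the chaperones and IER2 behaved differently. Unscaled HSPA1A signal ranged from 10000 to 25900 intensity units in vehicle and from 48100 to 104000 at 300 ng/kg, and HSPH1 ranged from 1600 to 3510 and from 7120 to 22300. Unscaled DNAJA1 ranged from 2760 to 6020 in vehicle and from 12600 to 34800 at 300 ng/kg. All 3 chaperones had separate 300 ng/kg and vehicle groups without any scaling, with unscaled log2 differences of 2.26, 2.44 and 2.44 where the log2 75th percentile itself differed by 1.1. The 75th percentile was also separate between these groups, at 514 to 1193 units in vehicle and 1258 to 2374 at 300 ng/kg. Unscaled separation alone thus does not set these genes apart, and its share over all probes was not computed. IER2 ranged from 2550 to 4530 units in vehicle, from 1510 to 5520 at 30 ng/kg and from 1510 to 3030 at 300 ng/kg. Its unscaled groups overlapped, and its unscaled log2 difference was -0.74. The rest of its scaled difference of -1.84 equals the difference between the groups in the 75th percentile.

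**Figure D2:**
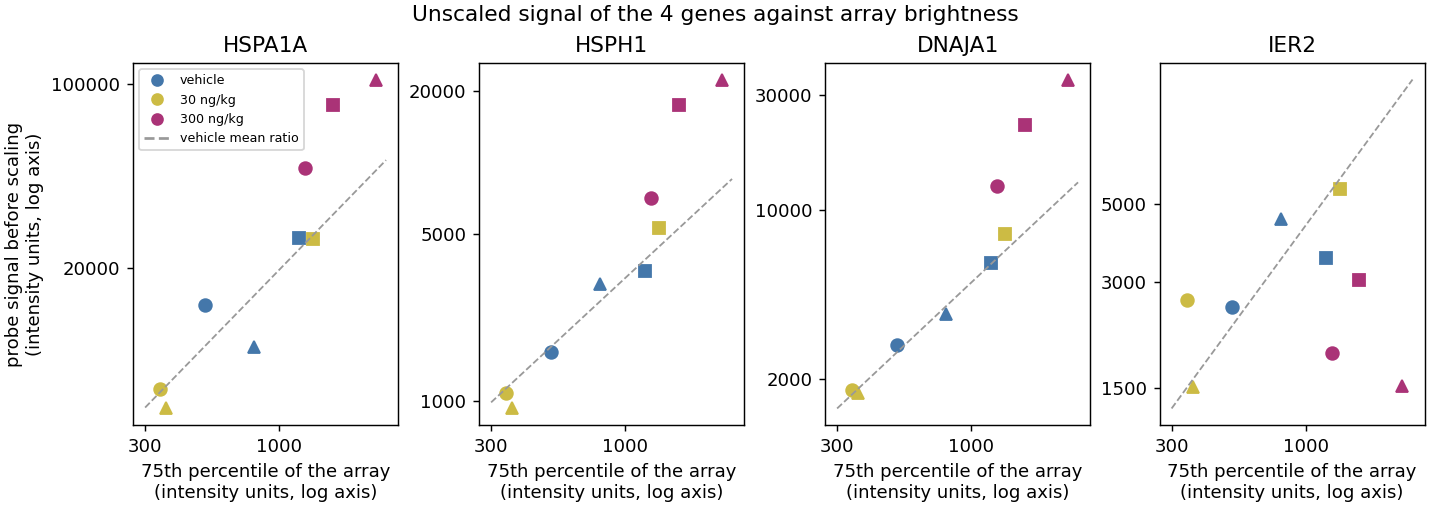
Unscaled probe signal (y axis, intensity units, log scale) is set against the 75th percentile of the same array (x axis, intensity units, log scale), with 1 point per array, colour for dose and marker shape for replicate as in the plot of scaled signal, and a dashed line at the mean vehicle ratio. The 300 ng/kg arrays lie above the line for the 3 chaperones, whose unscaled signal there exceeds all other arrays, and below it for IER2, whose unscaled signal overlaps the other groups.

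Some arrays of different dose were of like brightness. Replicate 2 of 30 ng/kg (1356 units) was slightly brighter than replicate 1 of 300 ng/kg (1258 units). Between this pair, with no replication, the 300 ng/kg array stood 1.01 higher for HSPA1A, 0.52 higher for HSPH1 and 0.77 higher for DNAJA1, while IER2 stood at -1.44 on the log2 scale. Replicate 2 of vehicle (1193 units) was closer still, and against it the same 300 ng/kg array stood 0.82 higher for HSPA1A, 0.94 for HSPH1 and 0.99 for DNAJA1, with IER2 at -0.97. Both pairs thus had the same order of signs, with a smaller IER2 difference against vehicle. With brightness as a covariate, an alternative chosen after seeing the data, the differences between 300 ng/kg and vehicle were 1.19 for HSPA1A, 1.08 for HSPH1, 1.20 for DNAJA1 and -1.33 for IER2, with adjusted p-values of 0.589 to 0.670 in limma.

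The slides gave partial within-batch values. Within slide 3 the mean of the 3 arrays of 300 ng/kg minus the single array of 30 ng/kg was 1.45 for HSPA1A, 1.70 for HSPH1, 1.40 for DNAJA1 and -1.77 for IER2. Within slide 2 the mean of 2 arrays of 30 ng/kg minus the single vehicle array was 0.64 for HSPA1A, -0.14 for HSPH1, 0.26 for DNAJA1 and -0.02 for IER2. With slide as a fixed block, 300 ng/kg minus vehicle came to 2.09 for HSPA1A, 1.56 for HSPH1, 1.65 for DNAJA1 and -1.79 for IER2. That fit links 300 ng/kg to 1 vehicle array, replicate 3, which had the lowest HSPA1A of all arrays. Slide 1 held vehicle arrays only and gives no value.

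Since all 4 probes were read on the same array, the difference between chaperone and IER2 signal does not depend on the factor by which an array is scaled. Quantile scaling, which is not a single factor, moved it from 3.12 to 3.32 at 300 ng/kg against vehicle. The mean log2 value of the 3 chaperones minus that of IER2 was set to 0 at its vehicle mean, because levels of different probes are not comparable. Relative to that mean the vehicle arrays read -0.01, 0.56 and -0.56, those of 30 ng/kg -0.82, 0.24 and -0.16, and those of 300 ng/kg 2.45, 2.74 and 4.18. The groups averaged 0 ± 0.56, -0.25 ± 0.54 and 3.12 ± 0.93 (SD, n = 3). All 3 arrays of 300 ng/kg stood well outside the range of the other 6, and no test was made because the genes were chosen with these results known. With the 75th percentile scaling, at 300 ng/kg the chaperone mean stood 0.91, 1.53 and 1.40 above vehicle, and IER2 stood at -1.54, -1.21 and -2.78. A ratio within an array shows an unequal difference, not which gene moved.

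**Figure D3:**
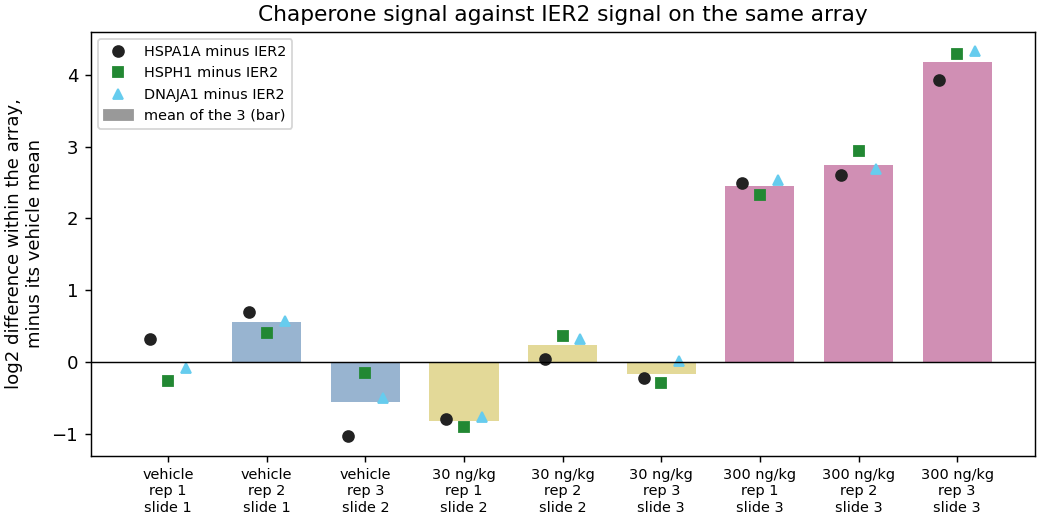
Bars give, for each of the 9 arrays on the x axis (dose, replicate and slide), the mean log2 signal of HSPA1A, HSPH1 and DNAJA1 minus that of IER2, less the vehicle mean of this difference (y axis, log2), and points give each chaperone minus IER2 in the same way. The 300 ng/kg bars read 2.45, 2.74 and 4.18, and the other 6 bars lie between -0.82 and 0.56.

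Across the 9 arrays, HSPH1 and DNAJA1 had a Pearson correlation of 0.96, HSPA1A and DNAJA1 of 0.91, and HSPA1A and HSPH1 of 0.82. IER2 correlated with them at -0.77 to -0.88. These values are a description over 9 arrays in 3 groups, and they rest largely on the gap between 300 ng/kg and the rest. As deviations from the group means, HSPH1 and DNAJA1 still correlated at 0.77 and HSPA1A and DNAJA1 at 0.56, but HSPA1A and HSPH1 at 0.07. IER2 against the chaperones was then between -0.34 and 0.04. Within groups, IER2 thus had no clear relation to HSPA1A or HSPH1 in these 9 animals.

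The 2 spots of each probe bear on the precision. All spots of the 4 probes were well above background on all 9 arrays, and none was saturated or marked as an outlier. The spots of a probe differed by a median of 0.04 on the log2 scale for DNAJA1, 0.14 for HSPH1, 0.15 for IER2 and 0.18 for HSPA1A. The widest gap was 1.11, for IER2 on replicate 1 of 300 ng/kg, where the spots read 2575 and 1195 units. With the first spot alone the IER2 difference at 300 ng/kg was -1.74 and with the second alone -2.0. The extraction program had scaled up readings from a low-gain scan for 10 HSPA1A spots, among them all 6 of 300 ng/kg. It had done so for 4 DNAJA1 spots and 2 HSPH1 spots, all on 300 ng/kg arrays, and for no IER2 spot. The part of this scaling in the differences was not tested.

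Other chaperone genes that carry a symbol in the authors' table mostly had a higher signal at 300 ng/kg too. Of 86 symbols listed for heat shock proteins and their partners, 12 could be tested, 3 of them the genes above. At 300 ng/kg against vehicle, 0 of the 12 passed limma's test over all probes, and 9 had an unadjusted p under 0.05 and a higher signal against 0 with a lower one. Among all tested probes those shares were 7.38% and 8.17%, and among the 1100 named genes, which were picked for differing, 35.8% and 40.3%. The median of the 12 was 0.80, where that of the named genes was -0.30. Without HSPA1A, HSPH1 and DNAJA1, 6 of 9 were higher with a median of 0.71. One of these, CRYAA, passed the filter on dim probes through 300 ng/kg alone, where it was bright, so its place among the higher genes was set by the filter. Without it, 5 of 8 were higher with a median of 0.66. HSPCA, an older symbol of the inducible cytosolic chaperone HSP90AA1, stood at 1.14 ± 0.29 and the mitochondrial chaperonin HSPD1 at 0.86 ± 0.23 (log2 ± SE, n = 3 per group). The collagen chaperone SERPINH1 and the endoplasmic reticulum J-domain protein DNAJB9 stood at 0.74 ± 0.26 and 0.71 ± 0.23. CCT4, a subunit of the cytosolic chaperonin, stood at 0.60 ± 0.25 and turned below 0 with normexp background correction. The small heat shock protein of the lens CRYAA stood at 3.35 ± 0.56, but only 1 vehicle array was well above background, and normexp gave 1.37.

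The regulators of the HSPA cycle differed among themselves. BAG3, a co-chaperone that HSF1 induces and that links HSPA proteins to autophagy, stood at 0.27 ± 0.31 at 300 ng/kg with overlapping groups, and BAG2, an inhibitor of client ubiquitination, at 0.59 ± 0.32. DNAJC3, a luminal J-domain protein of the endoplasmic reticulum, stood at 0.00 ± 0.22. At 30 ng/kg BAG2 stood at -0.92 ± 0.32, BAG3 at -0.72 ± 0.31 and DNAJC3 at 0.69 ± 0.22, each with groups that did not overlap. Among the 12 genes the groups were also separate for HSPCA at 0.49 ± 0.29 and for the dim CRYAA at 2.03 ± 0.56. Of all probes 9.38% had separate groups in this comparison, 4.93% higher and 4.45% lower. None of these genes passed the test over all probes (adjusted p of limma 0.946 each). Of the 12 genes, 2 had an unadjusted p under 0.05 and a higher signal at 30 ng/kg and 2 a lower one. Those shares were 3.23% and 1.83% of all probes and 16.5% and 9.91% of named genes, so the counts lay near those of named genes.

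IER2 was the exception among the immediate early and rapidly induced genes with a symbol. Of 60 listed symbols 10 could be tested, and at 300 ng/kg 9 had an unadjusted p under 0.05 and a higher signal, with IER2 alone lower. None passed the test over all probes. Of all probes 7.38% were higher in this way and 8.17% lower, and of named genes 35.8% and 40.3%. The list median was 1.25, or 1.37 without IER2. ID1, ID2 and ID3, dominant-negative partners of basic helix-loop-helix factors, stood at 2.11 ± 0.54, 1.62 ± 0.39 and 1.57 ± 0.36. The Notch target HES1 stood at 1.42 ± 0.47, the ERK phosphatase DUSP5 at 1.37 ± 0.34, the glucocorticoid- and serum-induced kinase SGK at 1.12 ± 0.33 and the orphan nuclear receptor NR4A2 at 1.08 ± 0.29. PLK2 stood at 1.04 ± 0.30 and the survival gene MCL1 at 0.60 ± 0.20. These 10 genes kept their side of 0 at 300 ng/kg with normexp, quantile and median scaling, with slide as a fixed block and with brightness as a covariate, but several sizes moved. With the slide block ID2 came to 0.54, ID3 to 0.64, DUSP5 to 0.52, MCL1 to 0.26 and PLK2 to 1.97. With normexp NR4A2 came to 0.42, DUSP5 to 0.63 and SGK to 0.58, and with brightness as a covariate HES1 came to 0.89 and PLK2 to 0.66. The FOS, JUN and EGR families were not analysed here, since no tested probe with a symbol in the table matched their listed members. At 30 ng/kg NR4A2 stood at 1.05 ± 0.29 and PLK2 at 0.70 ± 0.30, and the other 8 genes had unadjusted p-values of at least 0.05 in limma, where 3.23% of all probes and 16.5% of named genes were higher.

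**Figure D4:**
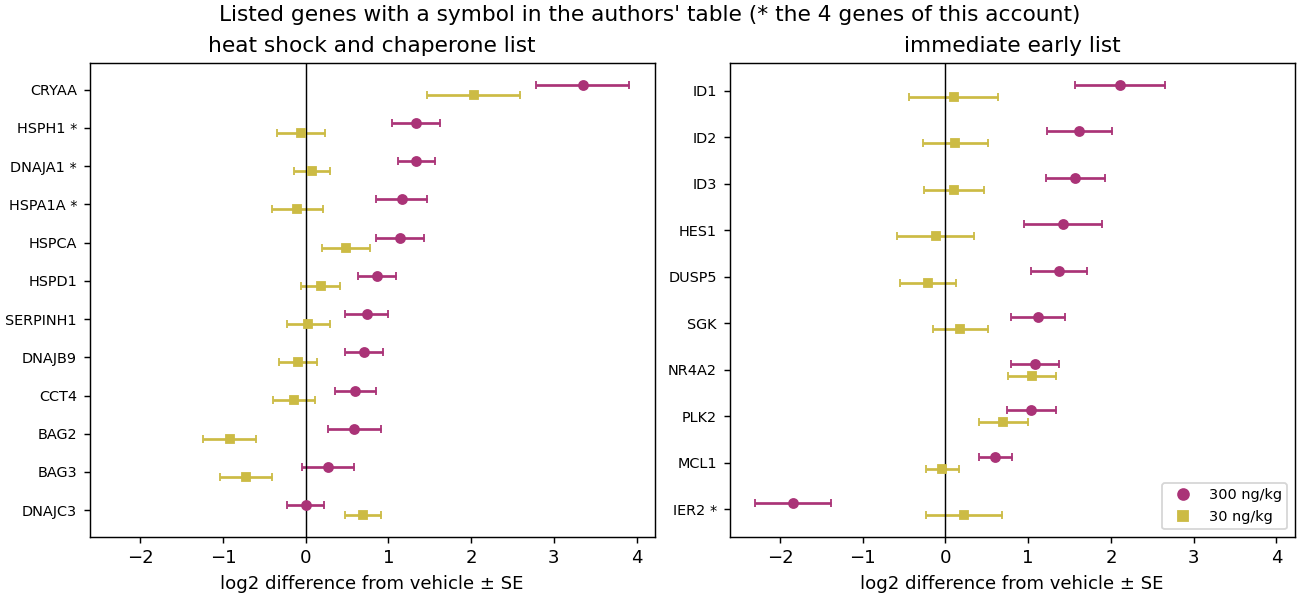
The log2 difference from vehicle ± SE (x axis) is shown for the tested genes of the heat shock list (left) and the immediate early list (right), with circles for 300 ng/kg and squares for 30 ng/kg (n = 3 per group) and stars for the 4 genes of this account. At 300 ng/kg IER2 is the only gene of its list below 0, at -1.84, and the chaperone genes lie between 0.00 and 3.35.

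By likeness over the 9 arrays, IER2 had more close neighbours than the chaperones. Of 1099 other named genes, 13.2% correlated with IER2 above 0.9, against 4.55% for DNAJA1, 2.18% for HSPH1 and 0.637% for HSPA1A. Named genes were picked for differing between these groups, and over all tested probes the shares were 2.14%, 0.554%, 0.422% and 0.218%. The 5 genes nearest to IER2 were RAB11B, VWA1, TSPAN10, ECGF1 and MICB (Pearson r 0.98 to 0.99), and they stood between -4.44 and -1.72 at 300 ng/kg. Those most opposed were RPA1, SFRP1, B4GALT1, MAP3K1 and TBL2 (r -0.96 to -0.95). Nearest to HSPA1A were SELS, TARS, DNAJA1, SERPINH1 and AMD1 (r 0.90 to 0.95). Nearest to HSPH1 were KAZALD1, UBQLN1, DNAJA1, IBTK and HAS2 (r 0.96 to 0.97), and nearest to DNAJA1 were HAS2, HSPH1, HNRPA2B1, ZBTB33 and SLC35B1 (r 0.94 to 0.98). DNAJA1 was thus among the 5 nearest genes of both other chaperones, and all of these correlations share the same 9 arrays, their brightness and the same choice of named genes.

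Markers of several cell types also differed between the groups, but only those with a symbol in the authors' table could be measured. That table was picked for differences between these groups, so a difference was a condition of a marker being measured. The other markers had no tested probe with a symbol there. Summed over the measured markers, as signal relative to the 75th percentile, the fibroblast genes COL1A1 and COL1A2 (2 of 5 markers) ranged from 6.72 to 8.01 in vehicle, 5.93 to 8.52 at 30 ng/kg and 10.8 to 20.0 at 300 ng/kg. The smooth muscle genes LMOD1 and TPM2 (2 of 7) ranged from 222 to 339, 243 to 449 and 117 to 199. The secretory genes KLK3, MSMB and TGM4 (3 of 9) ranged from 626 to 950, 613 to 1960 and 406 to 484, with saturated KLK3 spots. The endothelial marker PECAM1 (1 of 4) ranged from 0.916 to 1.22, 2.19 to 3.04 and 0.679 to 1.28, so that 30 ng/kg stood apart, unlike for the 4 genes. The myeloid marker CTSS (1 of 5) ranged from 0.0401 to 0.0503, 0.0315 to 0.0566 and 0.0683 to 0.0777, so that 300 ng/kg stood apart. So it did for the hillock marker KRT13 (1 of 4), at 0.0572 to 0.436 against at most 0.0343 elsewhere, with 5 arrays at the floor. KRT13 had floor values in both other groups and passed the filter on dim probes through 300 ng/kg alone. Its standing apart was therefore set by the filter. The mast cell marker FCER1A (1 of 4) ranged from 0.0146 to 0.023, 0.0146 to 0.046 and 0.0439 to 0.146, with 2 arrays at the floor. It too had floor values in both other groups and passed the filter through 300 ng/kg alone. The basal markers ITGB4 and S100A2 (2 of 6) ranged from 4.53 to 6.96, 7.72 to 10.3 and 5.96 to 6.35, again with 30 ng/kg apart. S100A2 was well above background on only 6 arrays, with 2 arrays at the floor. The part of these cell types in the chaperone and IER2 results was not tested.

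**Figure D5:**
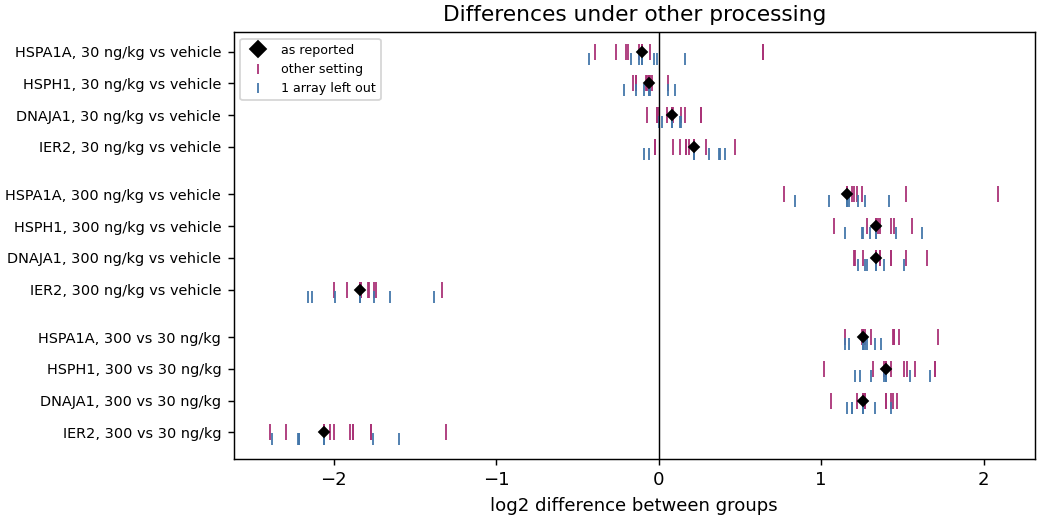
The log2 difference (x axis) of each gene in each comparison (y axis) is shown as reported (diamond), under each other setting (upper ticks) and with each array left out in turn (lower ticks). At 300 ng/kg against vehicle the 3 chaperones stayed between 0.77 and 2.09 and IER2 between -2.16 and -1.33 in all settings run, while at 30 ng/kg the values lie on both sides of 0.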

How the data were processed

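Gene symbols came from the authors' deposited table, whose folds are ratios of at least 1 after the authors' normalization (method not given in the sources used here) and whose raw group means are log2 values. The deposited array files hold background-subtracted and detrended intensity values from Agilent Feature Extraction 9.5.1.1 (per the file headers; 9.5 per the submitters' processing notes), with no normalization between arrays. Median spot and local background intensity values in the deposited files served normexp correction (offset 50) only. The headers name the design build rheMac2; no coordinates were used. The authors' raw log2 means of the 4 genes equalled those recomputed here.

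Spots flagged as outliers were left out, and the 2 spots of a probe were averaged and divided by the array's 75th percentile. A common floor of -6.10 on the log2 scale, 5 intensity units on the dimmest array, was then set. Tested were 15160 of 20217 probes, those whose spots were all well above background on every array of any 1 group. limma 3.58.1 (R 4.3.3) fitted group over all 9 arrays, with 6 residual and 2.99 prior degrees of freedom; the number of arrays limits the precision. Adjusted p-values (Benjamini-Hochberg, threshold 0.05, 2-sided) run over all tested probes. The fit was tested on simulated data with independent errors and no slide or brightness differences, so that test does not bear on those. The labels name no litter, so shared litters could not be checked, and the p-values treat the animals as independent. They rest on the spread between arrays of a group, in which animal, slide and brightness are not separated.

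Named were the 4 genes, all tested genes of 3 lists (86, 60 and 57 symbols) and, per gene, the 5 named genes of highest correlation (for IER2 also the 5 of lowest). Genes and lists were chosen with earlier results of these data known. Replicate numbers of vehicle and 30 ng/kg deviated together (correlations 0.13, 0.54 and 0.26 over probes); those with 300 ng/kg ran from -0.26 to 0.10. The labels give each array its own animal number. The 9 columns of per-sample flags in the table were not used. Alternatives were other background corrections, scalings, floors, filters, priors and weights, slide or replicate blocks, subsets of arrays and arrays left out; the brightness covariate and single spots were added after seeing the data.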

Additional observations from a re-analysis of the deposited data

How the results depend on the processing

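At 300 ng/kg against vehicle and against 30 ng/kg, the 4 genes kept their direction under all alternatives run. Against vehicle, HSPA1A ranged from 0.77 (array weights) to 2.09 (slide as a fixed block), HSPH1 from 1.08 to 1.62, DNAJA1 from 1.20 to 1.65 and IER2 from -2.16 to -1.33. With array weights DNAJA1 and HSPH1 passed limma's test, with adjusted p-values of 0.0457 and 0.0489, and HSPA1A and IER2 did not (0.0823 and 0.0518). Between the doses all 4 passed with array weights (0.0208 to 0.0251), in a fit that called 2951 of the 15160 tested probes. HSPH1 and DNAJA1 passed without replicate 2 of 30 ng/kg (0.0412 and 0.0354), in a fit that called 774 probes. The 4 genes were named for differing on these arrays, so their passing is not independent evidence. The chaperones minus IER2 ranged from 2.49 to 3.56 at 300 ng/kg against vehicle and came to 2.44 between the doses with brightness as a covariate, against 3.37 as reported.

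At 30 ng/kg the small differences changed sides. HSPA1A turned to 0.64 with slide as a fixed block and on slide 2 alone and to 0.16 without replicate 1 of vehicle, the highest of -0.43 to 0.16 with 1 array left out. HSPH1 turned to 0.06 with brightness as a covariate and without replicate 3 of vehicle and to 0.10 without replicate 3 of 30 ng/kg, within -0.21 to 0.10. DNAJA1 turned to -0.07 with normexp and to -0.01 with median scaling and with array weights. IER2 turned to -0.02 with slide as a fixed block, on slide 2 alone and with brightness as a covariate, to -0.06 without replicate 2 of vehicle and to -0.09 without replicate 1 of 30 ng/kg, within -0.09 to 0.41. The cause was not tested.

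limma's calls over all probes moved from 0 to 198 with array weights at 300 ng/kg against vehicle, and to 6 with slide as a fixed block at 30 ng/kg. Between the doses they moved to 2951 with array weights, 3 with median scaling, 2 with slide as a fixed block, 1 with quantile scaling and 1 with the replicate block. With 1 array left out they ranged from 0 to 1 at 30 ng/kg (1 without replicate 2 of 30 ng/kg) and from 0 to 271 at 300 ng/kg (271 without its replicate 2). Between the doses the range was 0 to 774. Dropping replicate 2 of 30 ng/kg gave the 774, dropping replicate 2 of 300 ng/kg gave 155, and dropping replicate 1 of vehicle gave 1. The replicate block changed no call of the 4 genes. normexp shifted the median of all probes to 0.28, -0.22 and -0.50 in the 3 comparisons, and median scaling shifted it to 0.15 between the doses. No fit within 1 slide was possible for 300 ng/kg against vehicle, since no slide held both.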

Other observations

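Genes of other stress pathways on the list of 57 symbols could be tested in 9 cases, and at 300 ng/kg 8 of them had an unadjusted p under 0.05 and a higher signal than vehicle, with 1 lower. Of all probes 7.38% were higher in this way and 8.17% lower, and of named genes 35.8% and 40.3%. limma passed 0 of them over all probes (adjusted p 0.267 to 0.304), and the names were again chosen by the authors on these arrays. The list's genes of the endoplasmic reticulum stood between 0.73 and 1.48: the transcription factor of the unfolded protein response XBP1 at 1.39 ± 0.28 (log2 ± SE, n = 3 per group), the sensor ATF6 at 0.96 ± 0.30, the disulfide isomerase PDIA4 at 1.00 ± 0.26, the lectin chaperone CANX at 0.73 ± 0.25 and SDF2L1 at 1.48 ± 0.40. XBP1 read 1.14 to 1.34 in vehicle, 1.12 to 2.03 at 30 ng/kg and 2.31 to 2.89 at 300 ng/kg. The 2 genes tied to glucocorticoids that were matched on this list lay on opposite sides of 0. The receptor NR3C1 stood at 0.64 ± 0.23 and ZBTB16, a zinc finger gene induced by glucocorticoids and androgens, at -1.65 ± 0.68. SGK, which this list holds only under its newer symbol SGK1 and so does not count, stood at 1.12 ± 0.33. ZBTB16 read 6.37 to 7.24 in vehicle, 6.66 to 9.12 at 30 ng/kg and 4.53 to 6.21 at 300 ng/kg. The oxidative stress enzyme GPX2 stood at 2.93 ± 0.62 and the hypoxia-induced collagen hydroxylase P4HA2 at 1.68 ± 0.40. All 9 kept their side of 0 at 300 ng/kg with normexp, quantile and median scaling, the slide block and the brightness covariate, under which ZBTB16 came to -0.50, CANX to 0.37 and PDIA4 to 0.65. ATF6 came to 0.62 with normexp. With the slide block NR3C1 came to 0.24, PDIA4 to 1.69, SDF2L1 to 3.37, P4HA2 to 3.30 and ZBTB16 to -3.11.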
